A study of Mus musculus with 12 samples.

Results

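The surface markers that are used to sort cancer-associated fibroblasts (CAFs) into subsets were followed in pancreatic stellate cells (PSCs) as RNA. The markers were chosen by name, as the rows of the count table with the symbols *Pdpn*, *Ly6a*, *Ly6c1*, *Cd34*, *Dpp4*, *Eng* and *Nt5e*, and all 7 were found among the 39179 genes of the table. They were measured in 12 libraries of polyadenylated RNA, 4 from PSCs cultured alone (mono-PSCs), 4 from PSCs cultured with pancreatic cancer cells (PCCs; 2W-PSCs) and 4 from PSCs cultured with PCCs and macrophages (MØs; 3W-PSCs). All cultures ran for 72 h in minimal medium, and the labels name no further treatment. The PSCs carried mCherry and were sorted on it, and the labels give the C57BL/6 strain for every sample. The study's methods name the PSCs as PSC C2, a clone of mouse stellate cells immortalised with SV40, so that all libraries come from 1 cell clone. They list the MØs as the RAW264.7 mouse line and the PCCs as a mouse pancreatic cancer line that was grown with doxycycline. Whether the sequenced cultures held doxycycline is not given in the sources used here. The methods set the same total cell number for every culture, so that PCCs and MØs took the place of part of the PSCs. The number of PSCs plated thus changed with the culture, and its part cannot be told apart from that of the other cells. The comparisons asked which sorting markers PSCs gained or lost in culture with PCCs, and in culture with MØs as well as PCCs.

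The 7 genes encode proteins that reach the cell surface and can be stained on living cells. Podoplanin (PDPN) is a mucin-like glycoprotein that marks fibroblasts as a class. SCA-1, the product of *Ly6a*, and LY6C, which *Ly6c1* and its neighbour *Ly6c2* encode, are small GPI-anchored proteins of the Ly6 family that are used to separate inflammatory from other CAFs. CD34 is a sialomucin of vascular and adventitial progenitors, and DPP4 is a dipeptidyl peptidase that marks adventitial fibroblasts. Endoglin (CD105, *Eng*) is a co-receptor for ligands of the TGF-beta family, and CD73 (*Nt5e*) turns AMP into adenosine outside the cell. RNA and surface protein need not move together, and the libraries hold RNA only.

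The libraries held 4561817 to 8093368 counts each. Levels are CPM (counts scaled to the size of the library) after TMM scaling over the 12 libraries. The library kit yields about 1 fragment per transcript, so that levels of different genes could be set side by side without a correction for length. The RNA was of fibroblast type, with the summed level of 11 fibroblast markers between 4660 and 9100 CPM in every library. The summed level of 12 macrophage markers ran from 9.66 to 10.8 CPM in the mono-PSC libraries, from 12 to 17.3 CPM in the 2W-PSC libraries and from 29.9 to 67.4 CPM in the 3W-PSC libraries. *Cd14* led this list in all cultures, *Emr1*, which encodes F4/80, was at 0 in every library, and 6 of the 12 markers including *Ptprc* were at 0 in mono-PSCs and in 2W-PSCs. The 10 epithelial markers summed to between 0.484 and 2.46 CPM in the mono-PSC libraries, between 75.7 and 149 CPM in the 2W-PSC libraries and between 52.5 and 91.0 CPM in the 3W-PSC libraries, with *Krt18* in the lead in both co-cultures and *Cldn4* at 0 in all libraries. The 9 endothelial markers summed to 6.19 to 19.6 CPM over all libraries, led by *Egfl7*, with *Pecam1* below 1 CPM on average in each culture. The part of RNA from other cells in the values that follow was not tested. In bulk RNA, fewer cells with a transcript and less transcript per cell cannot be told apart. Replicate 2 of the 2W-PSCs stood apart from its group in its counts over all genes, with a chi-square per degree of freedom of 41.8 to 80.8 against the other 2W-PSC libraries and 21.6 to 24 among those, and *Ly6a*, *Pdpn*, *Cd34* and the called genes of the lists below for which values are printed are given with and without it. That fit of the listed genes was added after seeing the data, and without the library all 4 of those called in 2W-PSCs against mono-PSCs and all 19 of those called in 3W-PSCs against 2W-PSCs were called in the same direction. It was not the only library of this kind. By the same measure 3W-PSC replicate 3 was at 19.8 to 32.6 against the other 3W-PSC libraries, and those at 6.24 to 11 among themselves. Mono-PSC replicate 1 was at 29.1 to 36.1 against the other mono-PSC libraries, and those at 16.4 to 26.2 among themselves. The listed genes were not fitted again without 3W-PSC replicate 3 or without mono-PSC replicate 1. Over all genes, 0.991% were called in 2W-PSCs against mono-PSCs, 26.4% in 3W-PSCs against mono-PSCs and 10.7% in 3W-PSCs against 2W-PSCs, and the counts of listed genes are set beside these shares. A few called genes among so few tested are a description of the list.

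*Ly6a* had the largest fold difference between cultures among the 5 markers tested. Its level was 55.1, 68.5, 79.0 and 77.7 CPM in mono-PSCs. It was 28.9, 38.8, 29.1 and 40.6 CPM in 2W-PSCs. It was 161, 153, 230 and 252 CPM in 3W-PSCs. The 3 cultures did not overlap, with the 2W-PSCs lowest and the 3W-PSCs highest, as the plot of levels by library shows. By edgeR's quasi-likelihood fit, where p-values were corrected (Benjamini-Hochberg) across every gene of the comparison, *Ly6a* was above its 2W-PSC level in 3W-PSCs by 2.54 on the log2 scale (SE 0.221), which is 5.81-fold (adjusted p = 8.34e-05). This was the 104th highest log2 fold change of the 11513 genes tested in this comparison. Against mono-PSCs the level of *Ly6a* in 3W-PSCs was higher by 1.5 on the log2 scale (SE 0.187, adjusted p = 1.34e-05). Both calls held in all 15 alternative analyses. In 2W-PSCs against mono-PSCs the log2 fold change of *Ly6a* was -1.02 (SE 0.209, adjusted p = 0.0390). That call held in 9 of 15 alternatives, and with 1 library left out it held in 2 of 8 fits, those without mono-PSC replicate 1 or 2W-PSC replicate 2, with adjusted p between 0.00826 and 0.152. Without 2W-PSC replicate 2 the log2 fold change of *Ly6a* was -1.09 (adjusted p = 0.00826) there and 2.60 (adjusted p = 9.95e-07) in 3W-PSCs against 2W-PSCs.

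**Figure D1:**
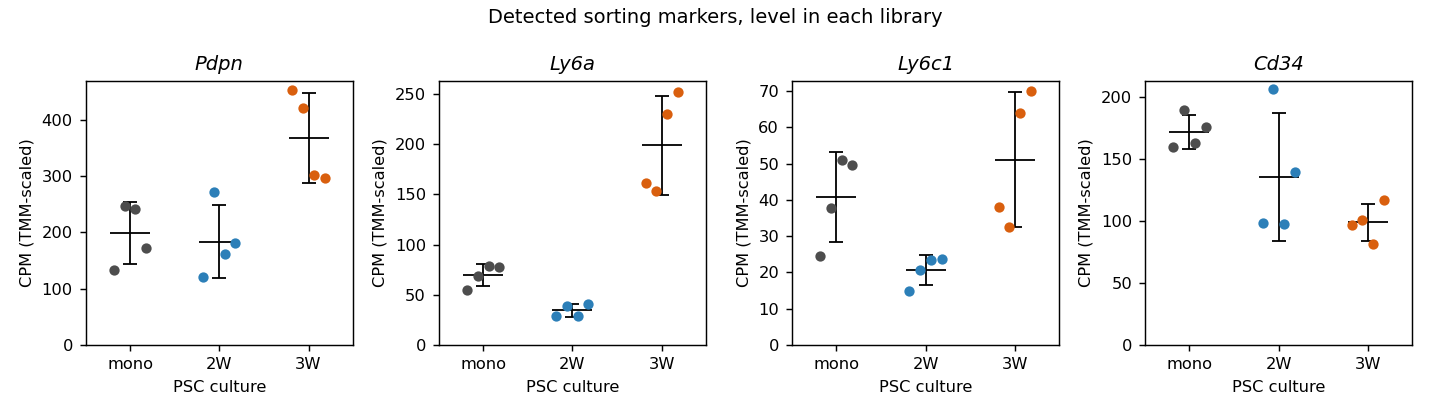
Level of *Pdpn*, *Ly6a*, *Ly6c1* and *Cd34* in CPM (vertical axes, starting at 0) in mono-PSCs, 2W-PSCs and 3W-PSCs. Points are libraries in the order of their replicate numbers, and bars give the mean and SD of 4 libraries. *Ly6a* separated all 3 cultures, whereas *Pdpn* was higher and *Cd34* lower in every 3W-PSC library than in every mono-PSC library.

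*Ly6c1*, which lies on the same strand of chromosome 15 at 45986 bases from *Ly6a*, was the lowest of the 4 markers with a solid count. Its level was 24.4, 37.6, 51.0 and 49.7 CPM in mono-PSCs. It was 14.9, 20.6, 23.4 and 23.8 CPM in 2W-PSCs. It was 37.9, 32.5, 63.9 and 70.0 CPM in 3W-PSCs. The 2W-PSC libraries lay below every library of the other 2 cultures, while the 3W-PSCs and mono-PSCs overlapped. The level of *Ly6c1* in 3W-PSCs exceeded that in 2W-PSCs by 1.31 on the log2 scale (SE 0.278, edgeR adjusted p = 0.0134). The call held in all 15 alternatives, with adjusted p up to 0.0493, the value without 3W-PSC replicate 4. In 2W-PSCs against mono-PSCs the log2 fold change of *Ly6c1* was -0.96 (SE 0.273, adjusted p = 0.174), and it was called in 0 of 15 alternatives although the libraries did not overlap. In 3W-PSCs against mono-PSCs it was 0.32 (SE 0.257, adjusted p = 0.389).

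*Ly6c2*, the neighbour of *Ly6c1* and the form of LY6C that monocytes carry, had no count in any of the 12 libraries. The genes are close copies. Of the 75-base windows in the last 500 bases of the annotated transcripts, where this kit reads, 18.2% of those of *Ly6c1* were also found in *Ly6a* or *Ly6c2*, and 23.1% of those of *Ly6c2* in *Ly6c1*, so that reads from the shared windows could not be assigned by sequence. For *Ly6a* this share was 0.131%. The rest of the windows were found in no other gene. The bases before the annotated starts of the pair show how far the copies differ where transcription begins. Each line holds the 250 bases before the start as RefSeq gives them on GRCm38.p6, from the minus strand, for *Ly6c1* at chr15:75048838-75049087 and for *Ly6c2* at chr15:75111972-75112221, with aligned bases that differ in capitals.
Ly6c1: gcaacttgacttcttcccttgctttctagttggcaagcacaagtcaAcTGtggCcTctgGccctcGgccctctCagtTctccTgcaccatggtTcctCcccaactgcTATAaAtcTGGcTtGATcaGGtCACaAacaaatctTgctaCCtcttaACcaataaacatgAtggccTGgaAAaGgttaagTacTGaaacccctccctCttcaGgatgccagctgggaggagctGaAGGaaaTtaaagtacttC
Ly6c2: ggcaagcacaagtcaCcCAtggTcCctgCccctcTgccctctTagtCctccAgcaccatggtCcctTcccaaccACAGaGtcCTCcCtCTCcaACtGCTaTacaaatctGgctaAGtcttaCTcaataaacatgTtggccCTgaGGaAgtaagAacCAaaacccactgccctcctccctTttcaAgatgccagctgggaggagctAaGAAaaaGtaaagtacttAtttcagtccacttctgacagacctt
In the alignment, 164 of 216 aligned bases were the same (75.9%), with 3 interior gaps and a longest identical run of 20 bases. Windows of 300 bases around the start were present for 6 of the 7 markers, not for *Ly6a*. They were searched on both strands for the gamma-activated site TTCNNNGAA, the AP-1 site TGANTCA, the interferon-response core GAAANNGAA and the kappa-B site. They were present in 8.30%, 7.81%, 8.56% and 8.46% of all 32851 promoter windows of the table. The only match among the 6 markers was 1 interferon-response core in the window of *Dpp4*.

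The ratio of *Ly6a* to *Ly6c1* within a library was 2.26, 1.82, 1.55 and 1.56 in mono-PSCs. It was 1.93, 1.88, 1.24 and 1.71 in 2W-PSCs. It was 4.25, 4.72, 3.61 and 3.59 in 3W-PSCs. Every 3W-PSC library was above every library of the other cultures, and the mono-PSCs and 2W-PSCs overlapped. The mean ratio was 4.04 ± 0.545 (SD, n = 4) in 3W-PSCs and 1.69 ± 0.313 in 2W-PSCs (two-sided exact permutation p = 0.0286, the smallest that 4 libraries against 4 allow, 0.0343 adjusted over 6 comparisons of ratios). The same held against mono-PSCs, with a mean of 1.80 ± 0.332 (exact permutation p = 0.0286, adjusted 0.0343).

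Of the 24 other genes listed for the Ly6 family, 13 had no count in any library and 4 were tested in each comparison. *Ly6e*, which encodes a broadly expressed GPI-anchored member and lies 34971 bases from *Ly6a*, was the member with the highest level. Its mean and SD over 4 libraries were 79.0 ± 13.4 CPM in the mono-PSCs, 133 ± 56.9 CPM in the 2W-PSCs and 412 ± 65.9 CPM in the 3W-PSCs. *Ly6e* rose between 2W-PSCs and 3W-PSCs by 1.63 on the log2 scale (SE 0.281, edgeR adjusted p = 0.00480), and by 1.93 without 2W-PSC replicate 2 (adjusted p = 1.51e-05). It was the 1 gene of the 4 called there, where 10.7% of all genes were, with a median log2 fold change of -0.23 over the 4 and 0.00 over all genes. Against mono-PSCs it was higher by 2.38 in 3W-PSCs (adjusted p = 2.34e-08) and *Lypd6* was lower by 1.99 on the same scale (log2 fold change -1.99, adjusted p = 0.00266), so that 2 of 4 were called, beside 26.4% of all genes, with medians of -1.05 and 0.01. Of the 4 genes 0 were called between 2W-PSCs and mono-PSCs, beside 0.991% of all genes. The ratio of *Ly6a* to *Ly6e* was 0.895 ± 0.137 in mono-PSCs, 0.280 ± 0.0721 in 2W-PSCs and 0.477 ± 0.0456 in 3W-PSCs. No library of one culture overlapped another in this ratio (exact permutation p = 0.0286 for each pair, adjusted 0.0343). Between 2W-PSCs and mono-PSCs the levels already set its direction, since *Ly6a* was lower and *Ly6e* higher on average in the 2W-PSCs. The p for that pair is therefore no separate evidence.

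*Pdpn* was the most abundant of the 7 markers in each culture by its mean level. Its level was 133, 246, 242 and 172 CPM in mono-PSCs. It was 120, 272, 161 and 180 CPM in 2W-PSCs. It was 452, 421, 301 and 297 CPM in 3W-PSCs. All 3W-PSC libraries were above all libraries of the other cultures, which overlapped each other. The 3W-PSCs exceeded the mono-PSCs in *Pdpn* by 0.89 on the log2 scale (SE 0.205, 1.85-fold, edgeR adjusted p = 0.00388), a call that held in all 15 alternatives. Against 2W-PSCs it was higher by 1.01 (SE 0.256, adjusted p = 0.0304). This call held in 10 of 15 alternatives and in 3 of 8 fits with 1 library left out, where the adjusted p ran from 0.000376 to 0.103. It was lost without 2W-PSC replicate 1, 3 or 4 or without 3W-PSC replicate 1 or 2. Without 2W-PSC replicate 2, which stood apart from its group and was its highest for *Pdpn*, the log2 fold change was 1.26 (adjusted p = 0.000376). Between 2W-PSCs and mono-PSCs the log2 fold change was -0.09 (SE 0.279, adjusted p = 0.999), and its sign turned when mono-PSC replicate 2 or 3 or 2W-PSC replicate 1 was left out.

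Podoplanin binds the platelet receptor CLEC-2, the hyaluronan receptor CD44, the tetraspanin CD9 and galectin-8, and is tied to actin by ezrin, radixin and moesin. Of 7 genes listed for these partners 6 were tested, and *Clec1b*, which encodes CLEC-2, had no count. *Cd44* was the 1 of 6 called between 3W-PSCs and 2W-PSCs, beside 10.7% of all genes, and the median log2 fold change was 0.10 over the 6 and 0.00 over all genes. Its level was 129, 53.3, 100 and 86.0 CPM in the mono-PSCs, 133, 43.2, 166 and 97.1 CPM in the 2W-PSCs, and 320, 372, 336 and 283 CPM in the 3W-PSCs. The 3W-PSC libraries were above all others, by 1.58 on the log2 scale against 2W-PSCs (SE 0.326, adjusted p = 0.0118) and by 1.31 without 2W-PSC replicate 2 (adjusted p = 0.000152). Against mono-PSCs 3 of 6 partners were higher in 3W-PSCs, namely *Cd44*, *Ezr* and *Msn*, and 0 were lower, beside 26.4% of all genes called, with medians of 0.50 and 0.01. Between 2W-PSCs and mono-PSCs 1 of 6 was higher, beside 0.991% of all genes called. This was *Ezr*, with a log2 fold change of 1.16 (SE 0.234, adjusted p = 0.0356), and was also called without 2W-PSC replicate 2 (adjusted p = 0.0163).

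*Cd34* was lower in the 3W-PSCs than in the mono-PSCs, unlike *Pdpn* and *Ly6a*, which were higher. Its level was 160, 190, 163 and 176 CPM in mono-PSCs. It was 98.7, 207, 97.3 and 140 CPM in 2W-PSCs. It was 96.6, 101, 81.2 and 117 CPM in 3W-PSCs. The 3W-PSC libraries were all below the mono-PSC libraries, and the 2W-PSCs spread over both ranges. The 3W-PSCs held less *Cd34* than the mono-PSCs, with a log2 fold change of -0.80 (SE 0.151, edgeR adjusted p = 0.000755), in all 15 alternatives. In 2W-PSCs against mono-PSCs it was -0.33 (SE 0.248, adjusted p = 0.972) and in 3W-PSCs against 2W-PSCs -0.45 (SE 0.247, adjusted p = 0.273). The highest value of *Cd34* was in 2W-PSC replicate 2, which stood apart from its group, and without it these log2 fold changes were -0.62 (adjusted p = 0.130) and -0.18 (adjusted p = 0.512). *Podxl*, which encodes the related sialomucin podocalyxin, was at 0.848, 2.28 and 2.41 CPM on average in mono-PSCs, 2W-PSCs and 3W-PSCs and was called in 0 of the 2 comparisons in which it was tested.

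**Figure D2:**
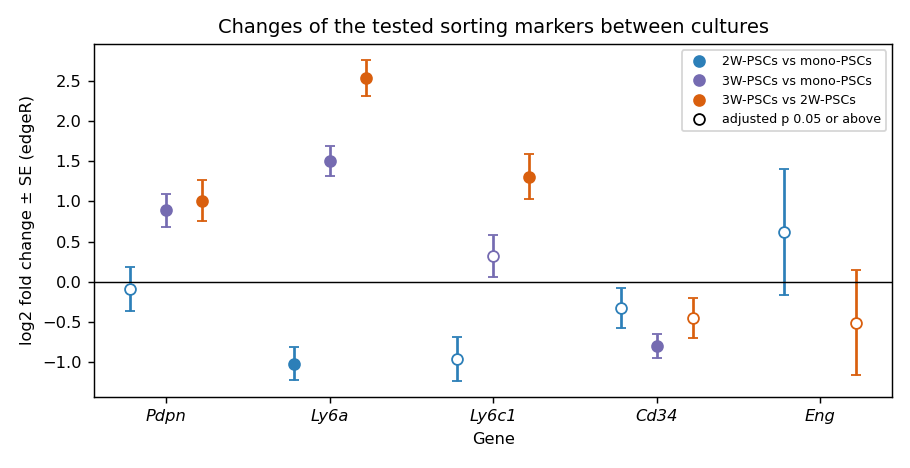
Log2 fold changes with their SE (vertical axis, edgeR) of the 5 markers tested in at least 1 of the 3 comparisons, which are told apart by colour. Filled points have an adjusted p under 0.05, and open points do not. *Ly6a* lay below 0 in 2W-PSCs and above 0 in 3W-PSCs, and *Cd34* lay below 0 in each comparison.

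Ratios to *Cd34* are given as a description with no test, since the levels above, of which *Pdpn* and *Ly6a* were higher and *Cd34* lower in the 3W-PSCs than in the mono-PSCs, fix their direction there. The ratio of *Pdpn* to *Cd34* was 0.830, 1.30, 1.48 and 0.980 in mono-PSCs. It was 1.22, 1.32, 1.65 and 1.29 in 2W-PSCs. It was 4.68, 4.18, 3.71 and 2.53 in 3W-PSCs. The lowest 3W-PSC library was above the highest of the others. The ratio of *Ly6a* to *Cd34* followed the order of *Ly6a* itself, with 0.408 ± 0.0659 in mono-PSCs, 0.267 ± 0.0534 in 2W-PSCs and 2.04 ± 0.594 in 3W-PSCs. Of all counts on the 7 markers, *Pdpn* took 40.4%, 48.3% and 51.1% on average in mono-PSCs, 2W-PSCs and 3W-PSCs. *Cd34* took 36.2%, 35.6% and 13.8%, *Ly6a* took 14.6%, 9.44% and 27.8%, and *Ly6c1* took 8.33%, 5.75% and 7.14%. *Ly6a* stood above *Cd34* in every 3W-PSC library and below it in every library of the other cultures.

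**Figure D3:**
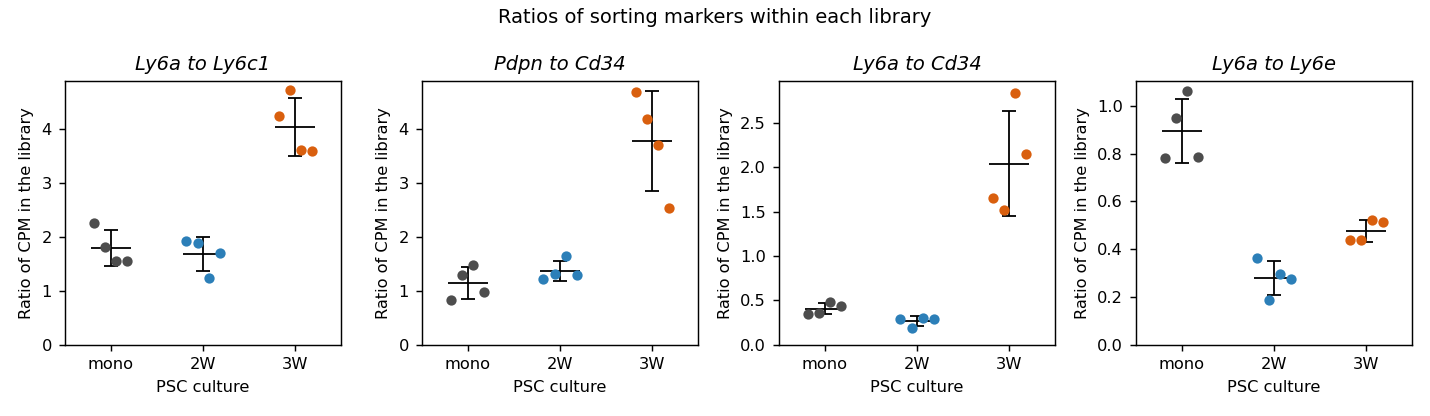
Ratios of CPM within each library (vertical axes, starting at 0) for *Ly6a* to *Ly6c1*, *Pdpn* to *Cd34*, *Ly6a* to *Cd34* and *Ly6a* to *Ly6e*, by culture. Points are libraries and bars give the mean and SD of 4. In the first 3 ratios the 3W-PSC libraries lay above all others, and in the last one the mono-PSC libraries did.

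The other 3 markers were at the limit of counting in these PSCs. *Dpp4* had 4 counts in replicate 2 and 1 count in replicate 3 of the mono-PSCs, and 0 in the other 10 libraries. In the co-cultures a count of 0 allows 3 counts per library, which is a level of up to 0.422 to 0.736 CPM in a 2W-PSC library and 0.347 to 0.398 CPM in a 3W-PSC library, for counting error only. *Dpp4* was too low to be tested, and its exons share 232 bases with *Gm13561* on the other strand. *Fap*, the closest relative of *Dpp4* among the proteases and its neighbour on chromosome 2, is itself a CAF marker and was counted in 2W-PSCs, at 6.76, 4.42, 3.50 and 5.14 CPM. It was at 0.308 ± 0.415 CPM in mono-PSCs and 0.328 ± 0.315 CPM in 3W-PSCs, with 5 counts or fewer in each of those libraries. *Fap* was higher in the 2W-PSCs than in the mono-PSCs (log2 fold change 4.00, SE 0.821, edgeR adjusted p = 0.0390) and lower in the 3W-PSCs than in the 2W-PSCs (-3.88, SE 0.681, adjusted p = 0.00532). Without 2W-PSC replicate 2 these values were 4.05 (adjusted p = 0.0136) and -3.94 (adjusted p = 0.000938). Of the 7 relatives of *Dpp4*, *Fap* was the 1 called of 5 tested in each of those comparisons, beside 0.991% and 10.7% of all genes. In 3W-PSCs against mono-PSCs *Dpp7* was lower and *Prep* higher, 2 of 4 tested, beside 26.4% of all genes. The median log2 fold change of those tested was 0.05, 0.42 and 0.40 in these comparisons, and 0.02, 0.00 and 0.01 over all genes.

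*Eng* had 6, 14, 2 and 5 counts in mono-PSCs, 14, 13, 2 and 11 counts in 2W-PSCs and 8, 9, 5 and 17 counts in 3W-PSCs. The ranges of the 3 cultures overlapped. Its level was 1.19 ± 1.07, 1.81 ± 1.18 and 1.24 ± 0.678 CPM (SD, n = 4 each), and no difference was detectable at this depth, with log2 fold changes of 0.62 (SE 0.782, adjusted p = 0.999) in 2W-PSCs against mono-PSCs and -0.51 (SE 0.654, adjusted p = 0.671) in 3W-PSCs against 2W-PSCs. In 3W-PSCs against mono-PSCs *Eng* did not pass the filter on low counts (exact permutation p = 0.886 on CPM). Its exons share 61 bases with *Fpgs* on the other strand. Endoglin acts with ALK1 (*Acvrl1*) and the type II receptors on BMP9 and BMP10, and ALK1 was at 0.319 CPM or less on average in each culture, while the ligand genes *Gdf2* and *Bmp10* had no count. Of the 12 genes of this receptor complex 8 were tested between 3W-PSCs and 2W-PSCs, and 2 were higher and 0 lower, beside 10.7% of all genes called, with medians of 0.39 and 0.00. These were *Tgfbr3*, which encodes the other co-receptor betaglycan, from 9.06 ± 5.42 to 27.2 ± 2.93 CPM (log2 fold change 1.57, SE 0.433, adjusted p = 0.0417), and *Smad1*, a signal transducer of BMP receptors (0.63, SE 0.183, adjusted p = 0.0486). With 2W-PSC replicate 2 left out they were at 1.24 (adjusted p = 0.000851) and 0.56 (adjusted p = 0.0323). Between 2W-PSCs and mono-PSCs 0 of 8 were called, beside 0.991% of all genes. In 3W-PSCs against mono-PSCs 3 of 9 were higher, *Tgfbr1*, *Tgfbr3* and *Smad1*, beside 26.4% of all genes called, with medians of 0.23 and 0.01.

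*Nt5e* had 4, 4, 0 and 8 counts in mono-PSCs, 9, 10, 5 and 17 counts in 2W-PSCs and 6, 8, 2 and 0 counts in 3W-PSCs. Its level was 0.613 ± 0.424, 1.81 ± 0.927 and 0.494 ± 0.439 CPM. The highest library was in 2W-PSCs, and the ranges of the cultures overlapped. *Nt5e* did not pass the filter in any comparison, and the exact permutation p on CPM was 0.0571 for 2W-PSCs against mono-PSCs, 0.83 for 3W-PSCs against mono-PSCs and 0.0857 for 3W-PSCs against 2W-PSCs. By RT-qPCR, the study needed a combination of blocking antibodies to lower *Nt5e* in PSCs given medium from 3W co-cultures. It discussed the gene among those that MØs induce. By mass cytometry, the study also placed the protein of this gene among markers found mostly in PSCs cultured with both PCCs and MØs. It reported that these markers fell when fewer MØs were plated. The counts here, which were at the limit of counting, did not show such a rise in RNA. The reason was not tested. CD73 works on AMP that ENPP1, ENPP3 or CD39 (*Entpd1*) release from nucleotides. *Entpd1* was at 0.451 CPM or less on average in each culture. Of 14 genes listed for the making, sensing and removal of adenosine 7 were tested, and 1 was higher and 1 lower in the 3W-PSCs than in the 2W-PSCs, beside 10.7% of all genes called, with a median log2 fold change of 0.00 in both. The A2B receptor gene *Adora2b* was higher, from 4.73 ± 2.5 to 19.6 ± 5.34 CPM (log2 fold change 2.02, SE 0.387, adjusted p = 0.00802), and *Enpp3* was lower, from 7.70 ± 2.11 to 1.86 ± 0.636 CPM (-2.03, SE 0.377, adjusted p = 0.00693). In the fit without 2W-PSC replicate 2 they were at 1.75 (adjusted p = 0.000615) and -1.83 (adjusted p = 0.00529). Against mono-PSCs 2 of the 7 were higher in 3W-PSCs (*Adora2b* and *Enpp1*) and 2 lower (*Enpp3* and *Adk*), beside 26.4% of all genes called, and 0 were called in 2W-PSCs, beside 0.991%.

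**Figure D4:**
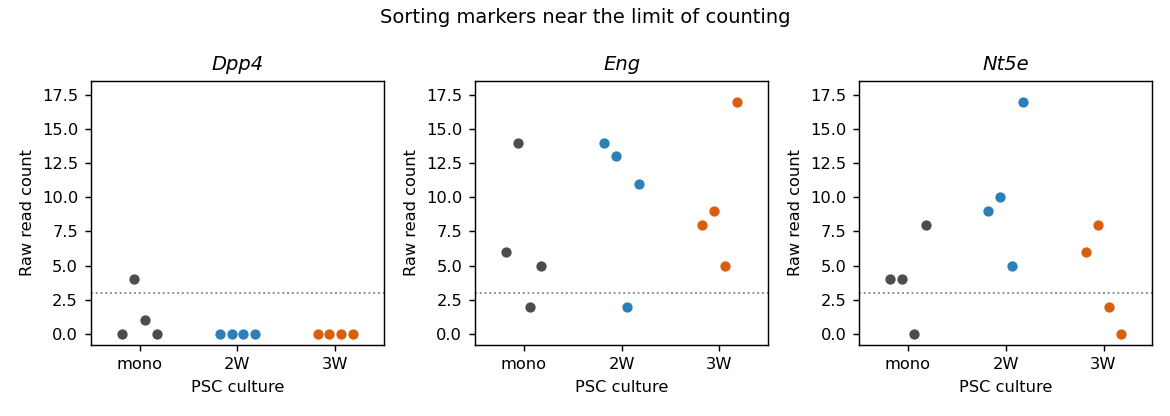
Raw read counts (vertical axes) of *Dpp4*, *Eng* and *Nt5e* in each library, by culture. The dotted line marks 3 counts, and no library held more than 17 counts of any of these genes.

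Of all 7 markers, 1 of the 5 markers tested was called in 2W-PSCs against mono-PSCs, lower (*Ly6a*), where 0.991% of 11199 genes were called, 0.839% higher and 0.152% lower. In 3W-PSCs against mono-PSCs 3 of the 4 tested were called, *Pdpn* and *Ly6a* higher and *Cd34* lower, where 26.4% of 11551 genes were called, 13.4% higher and 13.0% lower. In 3W-PSCs against 2W-PSCs 3 of 5 were called, *Pdpn*, *Ly6a* and *Ly6c1*, all higher, where 10.7% of 11513 genes were called, 5.73% higher and 4.95% lower. Groups that did not overlap were found for 2 markers in 2W-PSCs against mono-PSCs (5.73% of all genes), for 3 in 3W-PSCs against mono-PSCs (25.9%) and for 3 in 3W-PSCs against 2W-PSCs (21.3%). The median log2 fold change of the markers tested was -0.33, 0.60 and 1.01 in these comparisons, beside 0.02, 0.01 and 0.00 for all genes. The 3 comparisons share libraries. The markers that passed the filter are not all 7, and these counts describe 4 or 5 genes.

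The study stained fibroblasts with an antibody panel that holds podoplanin, CD73, CD34 and CD105, and the genes of 20 of its other surface targets were read beside the markers. CD45, MHC class II and the intracellular targets were not in this list, so that its counts do not cover the whole panel. Of the 20 genes 17 were tested in each comparison. In 3W-PSCs against 2W-PSCs 5 were higher and 4 lower, beside 10.7% of all genes called, with a median log2 fold change of 0.26 over the 17 and 0.00 over all genes. *Vcam1*, which encodes an adhesion molecule for leukocyte integrins, was at 144 ± 28.6 CPM in the 2W-PSCs and 684 ± 50.9 CPM in the 3W-PSCs (log2 fold change 2.24, SE 0.183, edgeR adjusted p = 5.71e-05). *Cd44*, the platelet-derived growth factor receptor gene *Pdgfra*, *Cd14* and the "don't eat me" signal *Cd47* were the other genes called higher. Of these, *Cd14* also led the macrophage markers, at 8.68 CPM in the 2W-PSCs and 22.8 CPM in the 3W-PSCs on average. The log2 fold change of *Cd14* was 1.37 (SE 0.394, adjusted p = 0.0481), and 1.06 without 2W-PSC replicate 2 (adjusted p = 0.00299). The part of MØ RNA in its level was not tested. *Itgb3* (-2.44, adjusted p = 0.0166), *Mcam* (-1.90, adjusted p = 0.00701), *Itga1* (-1.39, adjusted p = 0.0386) and *Thy1* (-0.67, adjusted p = 0.0297) were lower on the log2 scale. Without 2W-PSC replicate 2 the value of *Vcam1* was 2.16 (adjusted p = 4.43e-07), that of *Itgb3* -1.96 (adjusted p = 0.0109), that of *Mcam* -1.72 (adjusted p = 0.00369), that of *Itga1* -1.36 (adjusted p = 0.0315) and that of *Thy1* -0.66 (adjusted p = 0.0109). *Thy1* encodes CD90, which the study paired with podoplanin to sort CAFs, and it went the other way from *Pdpn*. Its level was 74.8, 81.9, 78.5 and 87.6 CPM in the mono-PSCs, 71.5, 66.0, 54.9 and 66.6 CPM in the 2W-PSCs and 40.2, 35.6, 37.9 and 48.8 CPM in the 3W-PSCs, without overlap between cultures. The panel gene *Cd24a* was the 1 called between 2W-PSCs and mono-PSCs, higher in the former (4.15, adjusted p = 0.017, or 4.04 and 0.0105 without 2W-PSC replicate 2), beside 0.991% of all genes called. In 3W-PSCs against mono-PSCs 10 were higher and 2 lower, beside 26.4% of all genes. The median log2 fold change was 0.72 and 1.20 in these comparisons, and 0.02 and 0.01 over all genes. *Cd24a* is also an epithelial gene and was higher where the epithelial markers were, and the part of PCC RNA in its level was not tested.

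**Figure D5:**
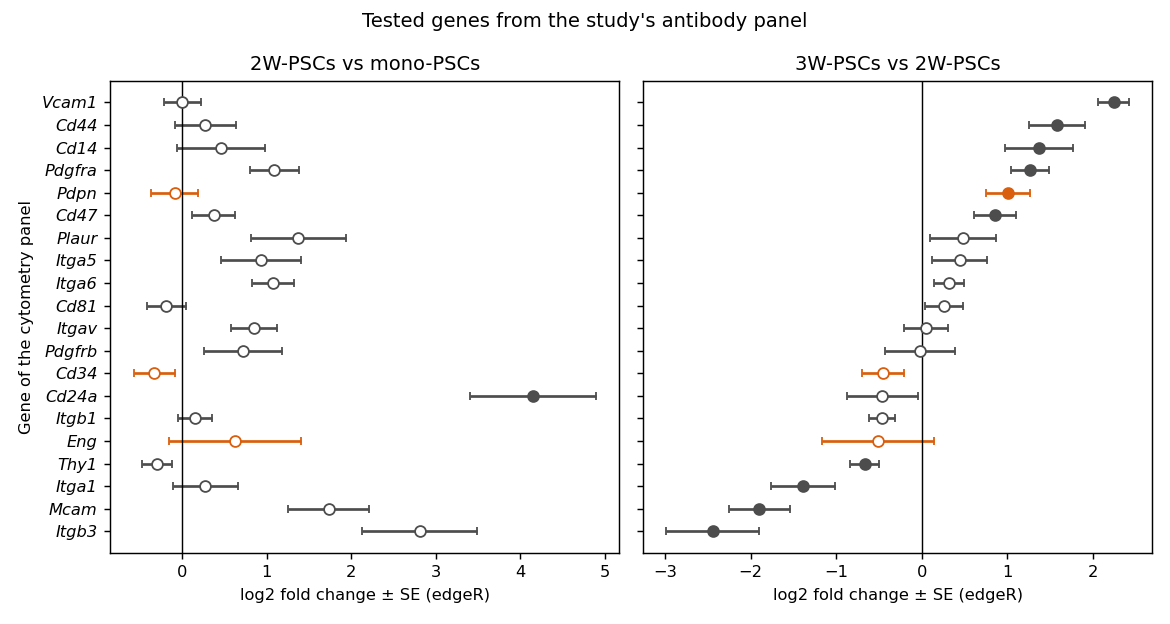
Log2 fold changes with their SE (horizontal axes, edgeR) of the tested genes among 20 surface targets of the study's antibody panel, with the sorting markers *Pdpn*, *Cd34* and *Eng* in orange, in 2W-PSCs against mono-PSCs and in 3W-PSCs against 2W-PSCs. Filled points have an adjusted p under 0.05. *Vcam1*, at 2.24, and *Itgb3*, at -2.44, mark the ends of the second comparison.

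DPP4, CD34 and SCA-1 are used together to define adventitial fibroblasts, so 12 other genes of such cells were read as well. Of these 7 were tested, and in 3W-PSCs against 2W-PSCs 1 was higher and 3 were lower, beside 10.7% of all genes called, with a median log2 fold change of -0.42 over the 7 and 0.00 over all genes. Against mono-PSCs 1 was lower in 2W-PSCs, beside 0.991% of all genes called, and 2 were higher and 3 lower in 3W-PSCs, beside 26.4%. The medians there were 0.19 and -0.25, and 0.02 and 0.01 over all genes. *Dpt*, which encodes the matrix protein dermatopontin, was at 81.0 ± 7.56 CPM in the mono-PSCs, 18.4 ± 9.65 CPM in the 2W-PSCs and 6.50 ± 1.83 CPM in the 3W-PSCs. The 3 cultures did not overlap in *Dpt*, and the log2 fold change was -2.12 in 2W-PSCs against mono-PSCs (SE 0.312, adjusted p = 0.00512) and -1.5 in 3W-PSCs against 2W-PSCs (SE 0.375, adjusted p = 0.0285). *Sema3c* (-1.45, adjusted p = 0.00409) and *Cd248*, which encodes endosialin (-1.67, adjusted p = 0.00768), were lower on the log2 scale in the 3W-PSCs than in the 2W-PSCs, and the chemokine receptor gene *Ackr3* was higher (1.70, adjusted p = 0.0222). Without 2W-PSC replicate 2 the log2 fold changes of *Dpt*, *Sema3c*, *Cd248* and *Ackr3* in this comparison were -1.68, -1.17, -1.24 and 1.40, with adjusted p of 0.00214, 0.000175, 0.000256 and 0.00125. That of *Dpt* in 2W-PSCs against mono-PSCs was -1.95 (adjusted p = 0.000586). *Pi16*, a further marker of these cells, was at 0.239 CPM or less on average in each culture. *Dpt*, *Sema3c* and *Cd248* were also lower in the 3W-PSCs than in the mono-PSCs (log2 fold changes -3.64, -2.47 and -0.85, adjusted p = 2.07e-09, 7.54e-09 and 0.00233), as *Cd34* was. The 2 genes higher there were *Ackr3* and *Gfpt2* (log2 fold changes 1.65 and 1.46, adjusted p = 0.000238 and 0.00179), and *Ly6a* was higher too. The list thus moved in both directions.

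Across the 12 libraries, the genes whose log2 CPM was most like that of each marker were sought among 8690 genes with a mean log2 CPM above 3, as a description. For *Ly6a* these were *Xdh* (Pearson r = 0.964), *Cndp2* (0.954) and *Lrrc28* (0.947). For *Pdpn* they were the drug transporter gene *Abcb1b* (r = 0.930), *Hap1* (0.881) and the acute-phase gene *Saa3* (0.880). For *Ly6c1* they were the complement protease gene *C1ra* (r = 0.911), *Elac2* (0.902) and *Bloc1s6* (0.873), and for *Cd34* they were *Dvl2* (r = 0.964), *Pafah2* (0.957) and *Sft2d2* (0.956). For *Eng*, whose counts were few, the highest was *Pard3b* (r = 0.925). Between the markers, r was 0.844 for *Ly6a* with *Ly6c1*, 0.752 for *Pdpn* with *Ly6a* and -0.356 for *Ly6a* with *Cd34*. The 12 libraries fall into 3 cultures, so that these values hold differences between cultures as well as between libraries of 1 culture.

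The macrophage markers were highest in 3W-PSC replicate 4, at 67.4 CPM in sum against 29.9 to 35.4 CPM in the other 3W-PSC libraries. The highest levels of *Ly6a* and *Ly6c1* were in the same library. Without it, the log2 fold changes in 3W-PSCs against 2W-PSCs were 2.41 for *Ly6a* (adjusted p = 0.000449), 1.12 for *Ly6c1* (adjusted p = 0.0493) and 1.10 for *Pdpn* (adjusted p = 0.0490). *Pdpn* was lowest in this library among the 3W-PSCs, at 297 CPM.

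In position on GRCm38, per GENCODE M21, *Pdpn* lies at chr4:143267431-143299564, *Ly6a* at chr15:74994877-74998031, *Ly6c1* at chr15:75044018-75048830 and *Dpp4* at chr2:62330073-62412231, all on the minus strand. *Cd34* lies at chr1:194938819-194961279, *Eng* at chr2:32646595-32682669 and *Nt5e* at chr9:88327197-88372092, all on the plus strand. The exons of *Cd34* share 148 bases with *Gm16897* on the other strand, and those of *Pdpn*, *Ly6a*, *Ly6c1* and *Nt5e* share none with another gene. No strand setting of the counting is given in the sources used here, so that reads of overlapping genes on opposite strands could not be told apart.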

How the data were processed

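The 12 libraries hold RNA of PSCs sorted on mCherry, with 4 from each culture, and replicate numbers from the labels, which call the replicates biological. The authors made QuantSeq 3′ FWD libraries, used STAR to place single-end reads on GRCm38 and featureCounts to count reads per Ensembl gene, and FastQC and DESeq2 are also named in the submitters' processing notes. The deposited values are raw counts per gene, used here as whole numbers without normalisation. Molecular identifiers are not given in the sources used here, so that PCR copies count as reads and limits cover counting error only. All 12 columns were matched to samples.

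Levels are CPM with TMM scaling in edgeR 4.0.16 (R 4.3.3). Each pair of cultures was compared over its 8 libraries with filterByExpr, glmQLFit and glmQLFTest, without a block and with Benjamini-Hochberg adjustment across every gene of the fit and calls under 0.05. Markers under the filter and the ratios of *Ly6a* to *Ly6c1* and *Ly6e* were compared with two-sided exact permutation tests. The tests were checked on simulated counts. The markers and gene lists were chosen with earlier results of these data known. The named genes are the 7 markers, the 3 genes most like each marker over the libraries (log2 CPM with a prior count of 2), up to 6 called genes per list with the largest log2 fold change in 3W-PSCs against 2W-PSCs, and close family members. Genes named beside these, as called in other comparisons or at 0, were chosen after their values were seen. Where 2 IDs share a symbol (*Cd47*, *Adora3*), the ID with more counts was used. Promoter windows are from RefSeq.

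Alternatives were DESeq2 size factors, no filter, a minimum of 10 counts per library, a single fit of all 12 libraries, a replicate block, DESeq2 1.42.0, a fit without the abundant genes *Gm26924*, *mt_Rnr1* and *mt_Rnr2*, and each library left out in turn. A fit of the listed genes without 2W-PSC replicate 2 was added after seeing the data. Same-numbered libraries of 2W-PSCs and mono-PSCs correlated in their deviations at r = 0.338, 0.260, 0.214 and 0.102. Between these cultures, libraries of different numbers ranged from -0.265 to 0.216. In the other comparisons same-numbered libraries ranged from -0.047 to 0.156. Whether libraries of the same number are paired cannot be told from these values.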

Additional observations from a re-analysis of the deposited data

How the results depend on the processing

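Against mono-PSCs, the calls of *Pdpn*, *Ly6a* and *Cd34* in 3W-PSCs, and against 2W-PSCs those of *Ly6a* and *Ly6c1*, kept direction and side of the threshold in all 15 alternatives. Of the markers called in 2W-PSCs against mono-PSCs, 0 to 1 remained with 1 library left out, and of those called in 3W-PSCs against 2W-PSCs 2 to 3. The log2 fold change of *Pdpn* in 2W-PSCs against mono-PSCs turned to 0.0024, 0.0176 and 0.0454 without mono-PSC replicate 2, mono-PSC replicate 3 and 2W-PSC replicate 1, within a range of -0.36 to 0.05 with 1 library left out. Genes called in 2W-PSCs against mono-PSCs numbered 111, and 177 without a filter, 57 with at least 10 counts in every library, 262 with all 12 libraries in one fit, 277 with DESeq2, and 61 to 233 with 1 library left out, with 233 without 2W-PSC replicate 2. In 3W-PSCs against 2W-PSCs they numbered 1230, and 497 to 2107 with 1 library left out, with 2107 without 2W-PSC replicate 2 and 497 without 3W-PSC replicate 2. The cause of these changes was not tested.

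With the replicate number as a block, 752 genes were called in 3W-PSCs against 2W-PSCs (455 higher, 297 lower), 3092 in 3W-PSCs against mono-PSCs and 135 in 2W-PSCs against mono-PSCs. The block changed no call of a marker. Over the 3 pairs of cultures, a library correlated best with its own number in 13 of 24 cases, where each case took the best of the 4 libraries of another culture. Without *Gm26924* and the mitochondrial rRNA genes, which took 10.1% to 17.9% (*Gm26924* alone) of the counts, levels were higher throughout, for example 449 CPM for *Pdpn* in 3W-PSCs, and the calls of the markers held. *Dpp4*, *Eng* and *Nt5e* had at most 17 counts in a library, and the cause of these low counts was not tested.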

Other observations

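Within each culture, the 2 lowest *Ly6c1* libraries were replicates 1 and 2. They were at 24.4 and 37.6 CPM in mono-PSCs, 14.9 and 20.6 CPM in 2W-PSCs, and 37.9 and 32.5 CPM in 3W-PSCs, against 49.7 to 51.0, 23.4 to 23.8 and 63.9 to 70.0 CPM in replicates 3 and 4. For *Ly6a* this was so in mono-PSCs and in 3W-PSCs but not in 2W-PSCs. This was noticed in the data, and the labels give no batch for the replicate numbers. With the numbers as a replicate block, the adjusted p of *Ly6c1* in edgeR was 0.0535 in 2W-PSCs against mono-PSCs and 0.0174 in 3W-PSCs against 2W-PSCs. What the numbers share was not tested.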
